A study of Mus musculus with 6 samples.

Results

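Mouse neural tube organoids were compared between day 7 and day 8 of culture. All cells of the elongated day 7 and day 8 libraries were taken, 2565 and 3337 cells, which are 5902 of the 16282 cells of the series. Both groups were grown from 1 mouse embryonic stem cell line, Sox1::eGFP;Bra::mCherry mESCs, which carries fluorescent reporters of Sox1 and Brachyury. Stem cells were embedded in Matrigel and fed N2B27 medium, to which bFGF and activin-A were added up to day 3. At day 6 the organoids were moved to fresh Matrigel, 1 organoid to a drop, and grown on in N2B27. Each library pooled 100 organoids and was made with the 10x Genomics 3′ v3 kit, so each day is 1 library and the groups differ by their day of harvest alone as far as the labels say. No spread between replicates of either day could be measured, and no p-value is given. The only duplicated group of the series is elongated day 6, whose batch 1 and batch 2 libraries lie in separate deposited tables; their difference is printed below as the only measure of spread.

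In the embryo the neural tube is built by dividing progenitors that line a central lumen. The dorsal tube gives rise to the neural crest, whose cells leave the epithelium, and to bands of dorsal progenitors (dP) that shed dorsal interneurons (dI). A progenitor that commits to a neuron passes through a short phase with proneural factors and Notch ligands before it exits the cell cycle. Progenitors themselves age: early tissue holds the RNA-binding protein Lin28a, and later tissue holds radial glial proteins and microRNAs such as let-7.

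The day 7 library held 133408217 unique molecular identifiers (UMIs, 1 for each captured mRNA molecule) with a median of 48466 per cell, and the day 8 library held 115735293 with a median of 31471. The median share of mitochondrial UMIs was 4.35% at day 7 and 5.35% at day 8. The depth per cell and this share therefore moved with the day, and their part in the differences below was not tested. The libraries shared 2 cell barcodes. Levels are in CPM (UMIs scaled to a common total, with a factor for each library), from UMIs summed over a library or over 1 class of a library. In such sums, fewer cells of a type and less RNA per cell cannot be told apart. All intervals are 95% and cover counting error only.

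Cell classes are those that the authors deposited, and they were checked against marker genes. The Spinal cord class held summed spinal cord markers (Hoxb8, Hoxb9, Hoxc8, Hoxc9 and Cdx2) of 189 CPM at day 7 and 348 CPM at day 8, against 7.67 and 53.8 CPM in all other cells. The Mid/hindbrain class stood apart less clearly. Its summed midbrain and hindbrain markers were 386 CPM against 213 CPM in other cells at day 7, and 213 against 177 CPM at day 8. The class named Proliferative neural progenitor was above other cells for Mki67, Top2a and Ccnb1 (1381 against 706 CPM, then 2095 against 1041 CPM). Yet its leading genes included the neurogenic genes Insm1 and Gadd45g at day 7 and Neurod4 and Insm1 at day 8. The homeobox gene Dbx1 was also among them at day 8. The single dI2 cell of day 7 held no UMI of the 3 dI2 markers. The dI2 class of day 8 held dI2 markers (Foxd3, Lhx1 and Lhx5) of 136 CPM against 4.10 CPM in other cells, with 1 of the 3 at 0, and dI3 markers (Tlx3, Isl1 and Prrxl1) of 192 CPM against 21.6 CPM. Its leading genes included Lbx1, Pax2 and Lhx1, which are known from other dorsal interneurons as well, so its name is used here only as the deposited label. In the Pre-EMT cranial neural crest class, summed premigratory crest markers (Pax3, Zic1, Tfap2a, Snai2, Foxd3 and Sox9) were below those of other cells. They were 278 against 309 CPM at day 7, and 390 against 505 CPM at day 8. Its migratory crest markers were 101 against 55.5 CPM, then 28.9 against 22.8 CPM. Its roof plate and dP1 markers were 415 against 196 CPM, then 453 against 102 CPM. This name too is used only as the deposited label. Markers of blood were at or near 0 in every class.

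Long noncoding transcripts that hold microRNA genes were among those that differed most between the days, and the microRNAs they hold are shown first because several share a seed. Mature sequences from RefSeq (GRCm38.p6) are printed 5′ to 3′ with the seed, bases 2 to 8, in capitals. C130071C03Rik (GRCm38, chr13:83721381-83884194, plus strand) holds Mir9-2. Mir99ahg (chr16:77236317-77773427, plus strand) holds Mir99a and Mirlet7c-1, and Mir100hg (chr9:41376526-41615185) holds Mir100, Mir125b-1 and Mirlet7a-2. The let-7a sequence is that of the RefSeq entry of another genomic copy, Mirlet7a-1.
mmu-miR-9-5p: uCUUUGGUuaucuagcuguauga
mmu-miR-99a-5p: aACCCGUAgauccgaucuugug
mmu-miR-100-5p: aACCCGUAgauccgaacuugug
mmu-let-7c-5p: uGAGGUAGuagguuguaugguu
mmu-let-7a-5p: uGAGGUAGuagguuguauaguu
mmu-miR-125b-5p: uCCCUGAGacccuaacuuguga
In the entries used, the 2 clusters thus hold the same pair of seeds, 1 shared by miR-99a and miR-100 and 1 shared by let-7c and let-7a. No entry of Mir125b-2 was among them, so whether the clusters also share the miR-125b seed was not read. The 3′ counts measure the polyadenylated host transcripts and not the mature microRNAs.

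C130071C03Rik was 0.296 CPM (0.211 to 0.405) at day 7 and 35.9 CPM (34.8 to 37.0) at day 8, 121-fold higher (88.4 to 171). It was 0.0292 CPM at day 6 and 97.2 CPM at day 10, so the levels of the 4 days of the same table were in the order of the days. Mir99ahg was 1.25 CPM at day 7 and 24.8 CPM at day 8, 19.7-fold higher (16.9 to 23.2), with 0.102 CPM at day 6 and 81.1 CPM at day 10. Mir100hg was 9.78 CPM at day 7 and 35.4 CPM at day 8, 3.62-fold higher (3.40 to 3.86), between 0.503 CPM at day 6 and 67.5 CPM at day 10. Mir124-2hg, a host of the neuronal microRNA miR-124, was 36.9 CPM and then 147 CPM, 3.99-fold higher (3.86 to 4.12). Over all noncoding transcripts compared, 39 of 243 were at least 2-fold higher at day 8 and 5 were at least 2-fold lower. Of the 24 among them that hold a RefSeq hairpin, 10 were higher and 0 were lower, beside 3.85% of all genes that were higher. Any host on chr18 was left out of the 24, and Gm4258 and A430106G13Rik among them hold the same Mir181b-1. Mir124-2hg is not among the 24, since no hairpin of the RefSeq table was found in it. With the mix held equal 2 of the 10 came under 2-fold, Rmst (2.71 and 0.89) and D030055H07Rik (1.25 and 0.56). The rise of these 3 hosts was also present inside the classes. In the Mid/hindbrain class C130071C03Rik went from 0.238 to 26.9 CPM, Mir99ahg from 0.879 to 12.5 CPM and Mir100hg from 8.71 to 33.4 CPM. In the Spinal cord class C130071C03Rik went from 1.95 to 82.5 CPM and Mir99ahg from 1.30 to 66.9 CPM, while Mir100hg, at 19.3 and 34.2 CPM, stayed under 2-fold. In the dP2/3, Pre-EMT cranial neural crest and Proliferative neural progenitor classes C130071C03Rik had 0 UMIs at day 7; set against 3 UMIs per sum it was at least 27.1-fold, 49.8-fold and 23.6-fold higher at day 8.

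Cells of the Mid/hindbrain class made up most of the day 7 library, and their share was lower at day 8, while Spinal cord cells and committed dorsal cells took larger shares. Mid/hindbrain cells were 2108 of 2565 at day 7 (82.2%, 80.6 to 83.6) and 1746 of 3337 at day 8 (52.3%, 50.6 to 54.0), a ratio of 0.637 (0.597 to 0.679). Spinal cord cells were 86 at day 7 (3.35%, 2.69 to 4.12) and 676 at day 8 (20.3%, 18.9 to 21.7), 6.04-fold (4.82 to 7.65) the share. The dP2/3 progenitors were 67 and 296 cells, 3.40-fold (2.60 to 4.50) the share. The interneuron classes were nearly empty at day 7. There were 14 dI3 cells at day 7 and 140 at day 8 (7.69-fold, 4.43 to 14.4), and 1 dI2 cell followed by 98. No dI1 cell was found among the 2565 of day 7, with an exact upper limit of 0.144% for the share, and 34 were found at day 8. Together dI1, dI2 and dI3 cells were 0.585% of the day 7 library and 8.15% of the day 8 library, against 0% at day 6 and 32.0% at day 10.

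The neural crest classes did not move together. Migratory cranial neural crest cells were 37 at day 7 and 7 at day 8, a ratio of the shares of 0.145 (0.0547 to 0.330). Pre-EMT cranial neural crest cells, named for the stage before they leave the epithelium, were 133 and 76, a ratio of 0.439 (0.327 to 0.587). Pre-EMT vagal/trunk neural crest cells, from farther back along the body axis, were 30 and 69, 1.77-fold (1.14 to 2.81) the share. The cranial classes were thus lower and the more posterior crest class higher at day 8. The cranial shares were not ordered by day either: Pre-EMT cranial cells were 2.16% at day 6 and 6.94% at day 10, and migratory cells were 0% and 1.52%. The classes were assigned from the same counts, by a procedure not given in the sources used here, and their sizes are not independent of the gene levels below.

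The share of Spinal cord cells was also not ordered by day. It was 5.45% at day 6 and 6.20% at day 10, both near the day 7 value and below that of day 8. In the other day 6 library, batch 1, the class scheme of its own table gave 507 of 2076 cells as Spinal cord (24.4%, 22.6 to 26.3). The 2 tables do not use the same class scheme, so this share and the 5.45% of batch 2 are not directly comparable. Day and library cannot be told apart for this class.

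**Figure D1:**
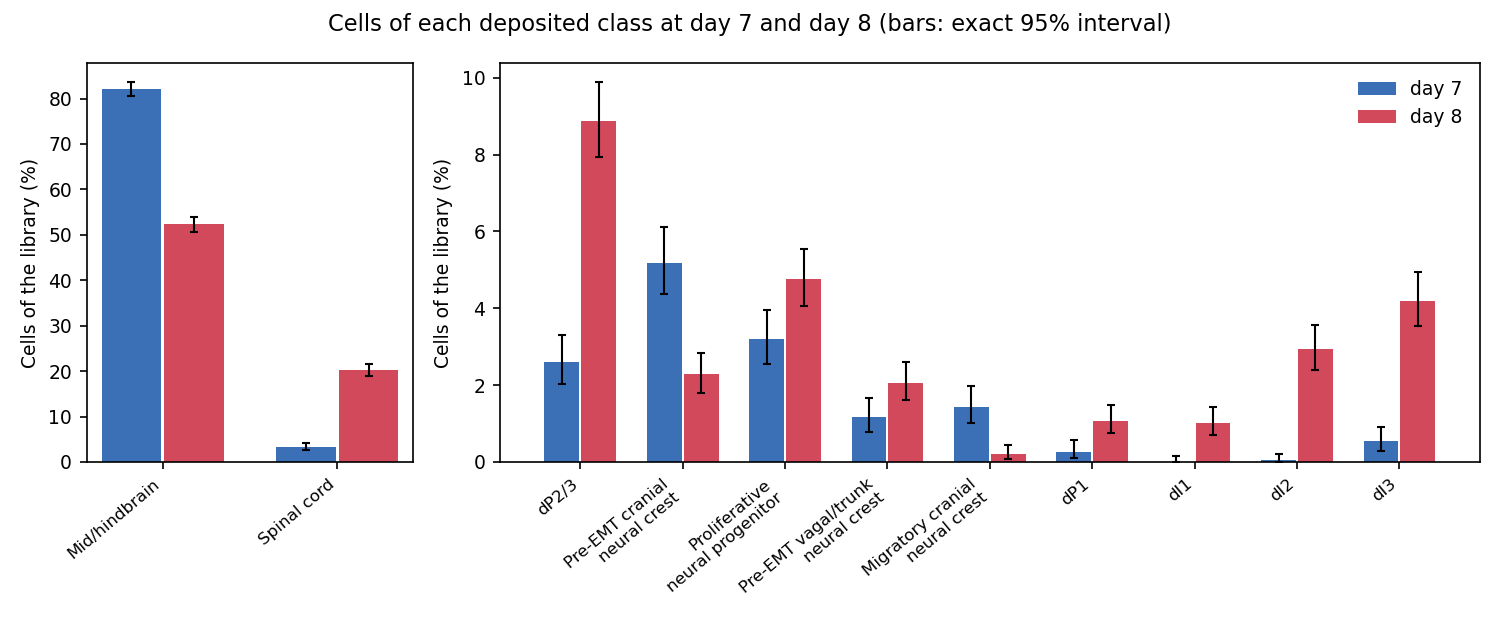
Share of each deposited class in the day 7 (blue) and day 8 (red) library, in percent of cells, with exact 95% binomial intervals as bars and a wider scale for the left panel. Mid/hindbrain cells went from 82.2% to 52.3%, and the Spinal cord, dP2/3 and dI classes lay higher at day 8.

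Over all cells, 9703 genes had at least 5 CPM on 1 of the days, and 605 of them (6.24%) were at least 2-fold apart. Of these, 374 (3.85%) were higher and 231 (2.38%) were lower at day 8. By the same rule 383 of 9196 genes (4.16%) were 2-fold apart between the day 6 duplicates. Of the 577 called genes with a duplicate value, 110 (19.1%) were also 2-fold apart between the duplicates, against 254 of 8903 (2.85%) among genes not called.

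On the higher side C130071C03Rik, given above, was followed by D930028M14Rik, Nhlh2 and Sst. Nhlh2, a basic helix-loop-helix factor of newly born neurons, was 0.798 CPM at day 7 and 39.2 CPM at day 8, 49.1-fold higher (40.4 to 60.1). Sst, the neuropeptide somatostatin, was 1.30 CPM and then 49.98 CPM, 38.4-fold higher (33.0 to 45.0). Dcx, the microtubule protein doublecortin of migrating neurons, was 2.46 CPM and then 49.0 CPM, 19.9-fold higher (17.8 to 22.3). The neurofilament gene Nefm (15.5 to 150 CPM), the transcription factor gene Ebf3 (2.21 to 21.8 CPM) and the ephrin receptor gene Epha3 (1.09 to 23.5 CPM) were among the 15 highest as well. Of these 3 genes, Epha3 was more than 2-fold apart between the day 6 duplicates, by 1.06 on the log2 scale. The uncharacterised D930028M14Rik (0.570 to 29.7 CPM) lies at chr7:25152457-25156627, inside the span of Pou2f2 (chr7:25087344-25179726) and on the opposite strand; whether the counting used strand is not given in the sources used here, so reads of the pair may not be separated.

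A Groucho gene and POU genes were also among the 15 highest. Tle5, a short member of the Groucho family of corepressors, was 4.43 CPM at day 7 and 70.8 CPM at day 8, 16.0-fold higher (14.7 to 17.4). It was 12.0 CPM at day 6 and 120 CPM at day 10, so day 7 was its lowest level among the 4 days. No value between the day 6 duplicates was available for Tle5. Pou2f2, a POU homeodomain factor, was 3.69 and 47.5 CPM, and Pou3f4 was 3.74 and 36.1 CPM. Pou3f3 was 10.7 CPM and then 89.5 CPM, 8.40-fold higher (7.94 to 8.89). The noncoding Pantr1 starts 925 bases from Pou3f3 on the opposite strand (chr1:42590782-42694842, minus, beside chr1:42695768-42703176, plus). Its level was 26.1 CPM and then 246 CPM, 9.46-fold higher (9.13 to 9.81). This pair also differed between the day 6 duplicates, where batch 2 minus batch 1 was -1.62 on the log2 scale for Pantr1 and -1.04 for Pou3f3. The same difference was 1.21 for Pou3f4 and -0.82 for Pou2f2.

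On the lower side Car4, Sulf1 and Egr2 were farthest apart. Car4, a membrane-bound carbonic anhydrase, was 24.7 CPM (23.9 to 25.6) at day 7 and 0.555 CPM (0.429 to 0.708) at day 8, 44.5-fold lower (34.8 to 57.7). Sulf1, which removes sulfate groups from heparan sulfate outside the cell, was 30.9 CPM and then 0.820 CPM, 37.7-fold lower (30.8 to 46.7). Egr2, the zinc finger factor of segments of the hindbrain, was 29.6 CPM and then 1.51 CPM, 19.6-fold lower (16.8 to 22.9). Their histories before day 7 differed. Sulf1 was 30.8 CPM at day 6 and stood at 0.707 CPM at day 10, so its drop lay between day 7 and day 8. Car4 was 3.13 CPM at day 6 and 0.0299 CPM at day 10, so day 7 was its peak among the 4 days. Maob, a monoamine oxidase, was likewise 1.04 CPM at day 6, 20.9 CPM at day 7 and 2.24 CPM at day 8. Between the day 6 duplicates Car4 differed by -2.36 on the log2 scale, Maob by -1.14, Egr2 by -0.80 and Sulf1 by 0.19.

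The other genes of the 15 lowest were closer together between the days. The glucose transporter gene Slc2a3 went from 56.5 to 10.8 CPM and the enolase gene Eno3 from 32.8 to 6.45 CPM, 5.22-fold and 5.08-fold lower. Fst, the activin and BMP antagonist follistatin, went from 39.9 to 9.14 CPM, and the TNF receptor family gene Tnfrsf19 from 41.2 to 9.84 CPM. The epithelial keratins Krt8 (22.4 to 6.53 CPM) and Krt18 (21.1 to 5.95 CPM) were also lower, and both had differed between the duplicates, by -1.52 and -1.02. Ifitm1, Lratd1, Clec2l, Sv2c and Arid3b completed the 15, between 3.60-fold and 6.88-fold lower.

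**Figure D2:**
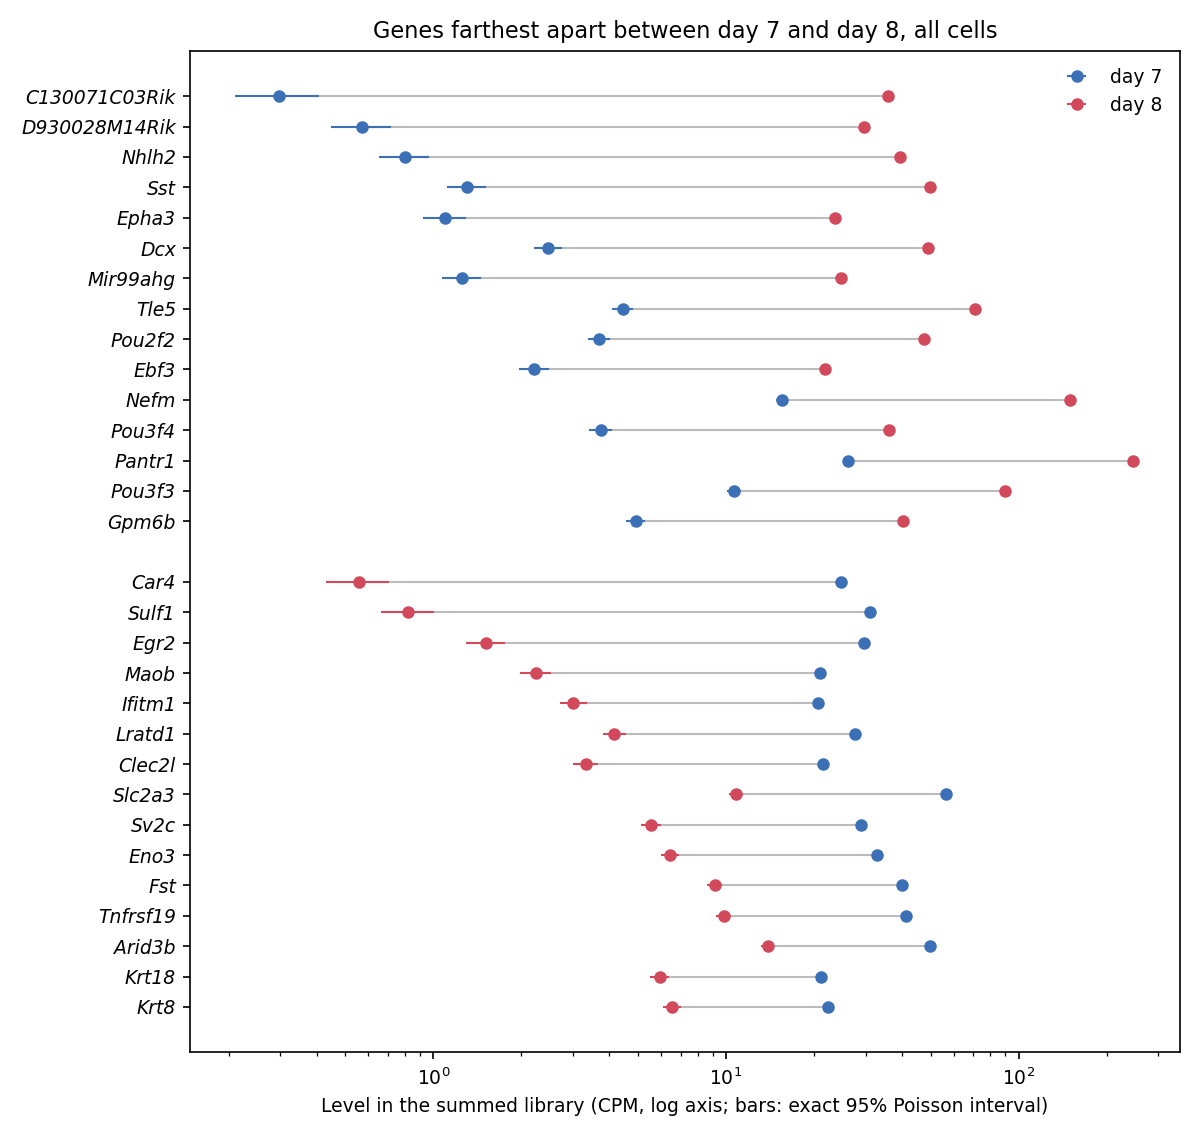
Level in the day 7 (blue) and day 8 (red) library of the 15 genes with the highest and the 15 with the lowest log2 difference among those with at least 20 CPM on the higher day, in CPM on a log axis with exact Poisson intervals. The highest differences exceed 10-fold, from C130071C03Rik (0.296 to 35.9 CPM) downward, and the lower side is led by Car4 and Sulf1.

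Because the class mix differed, each gene was also compared with both libraries given the same mix of the 5 classes that had at least 50 cells on both days. These were dP2/3, Mid/hindbrain, Pre-EMT cranial neural crest, Proliferative neural progenitor and Spinal cord, which held 96.5% of the cells of day 7 and 88.5% of those of day 8. With the mix held equal 239 of 9594 genes (2.49%) were at least 2-fold higher and 173 (1.8%) at least 2-fold lower. Of the 374 genes higher over all cells, 244 were 2-fold higher here too, counted without a second minimum, and of the 231 lower genes 163 were 2-fold lower. The cells left out of this comparison include the dI classes. Its levels were taken without the factor for each library, so more than the mix differs from the values over all cells.

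The named genes differed in how far they moved with the mix held equal. Sst went from a log2 difference of 5.25 over all cells to 0.81, Nefm from 3.27 to 0.69, Dcx from 4.30 to 1.62, Nhlh2 from 5.59 to 3.43 and Ebf3 from 3.29 to 1.20, so that Sst and Nefm came under 2-fold and the other 3 stayed above it. The dI classes are left out here, and at day 8 Sst was 956 CPM in dI2 and 869 CPM in dI3, and Nefm 3014 CPM in dI3. Leaving these cells out and holding the mix equal thus cannot be told apart for these genes. Inside the 5 classes the log2 difference of Sst ran from -0.37 to 5.58. C130071C03Rik (6.84 and 6.25), Mir99ahg (4.29 and 4.41), Tle5 (3.99 and 3.32), Pantr1 (3.24 and 2.89) and Gpm6b (3.03 and 2.84), which encodes a membrane proteolipid, moved little. The same was true on the lower side of Car4 (-5.43 and -5.12), Sulf1 (-5.21 and -5.13), Maob (-3.21 and -3.17) and Eno3 (-2.34 and -2.38). Krt8 was farther apart with the mix held equal, at -2.78 against -1.78. The giant cadherin gene Fat4 was 1.41 CPM at day 7 and 19.9 CPM at day 8 over all cells (3.81), and 3.54 with the mix held equal. Fat1 was at 0.09 over all cells and Fat3 at 0.98, or 1.03 with the mix held equal, so Fat3 lay at the edge of the 2-fold rule. Between the day 6 duplicates Fat3 differed by 0.97, Fat1 by 0.13 and Fat4 by -0.65. This family was looked up after the value of Fat4 was seen.

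**Figure D3:**
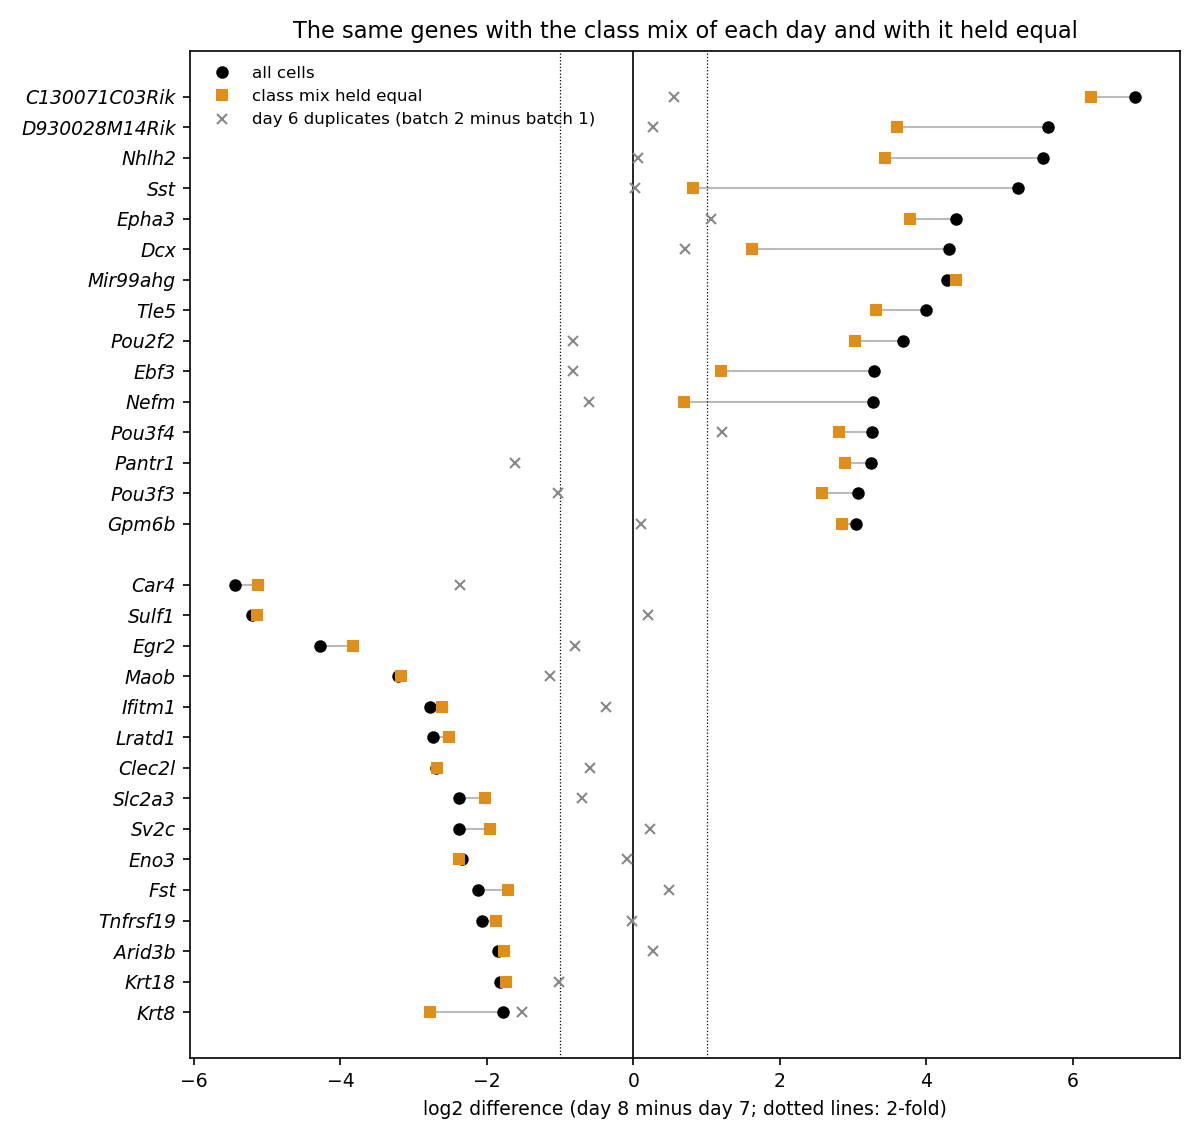
Log2 difference, day 8 minus day 7, of the same 30 genes over all cells (black circles) and with the class mix held equal (orange squares), with the difference between the day 6 duplicates (grey crosses, absent where 1 table lacks the gene) and dotted lines at 2-fold. Sst, Dcx, Nefm, Nhlh2 and Ebf3 moved by more than 2 toward 0 when the mix was held equal, as did D930028M14Rik, and Krt8 moved away from it. The values with the mix held equal leave out the dI classes.

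Gene lists were read as counts and medians beside those of all genes, whose median log2 difference was -0.03 over all cells and 0.02 with the mix held equal. Neuronal genes were higher at day 8. Of 19 neuron genes compared, 15 were at least 2-fold higher and 0 lower, with a median of 2.12. Tubb3, the tubulin of neurons, was 48.5 CPM at day 7 and 255 CPM at day 8, and Rtn1, a reticulon of the endoplasmic reticulum, was 46.2 and 140 CPM. Stmn2, a regulator of growing axons, was 43.5 and 194 CPM. With the mix held equal the median of the list was 0.56, and Stmn2 stood at -0.71: it was lower at day 8 inside the Mid/hindbrain class (32.8 to 12.4 CPM) and inside dP2/3 (215 to 108 CPM). The median between the day 6 duplicates was 0.45.

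Genes of the step from progenitor to neuron were higher too. Of 13 such genes, 7 were higher and 0 lower, with a median of 1.18 (0.32 with the mix held equal). Nhlh1, the close relative of Nhlh2, was 0.692 and 10.2 CPM, and Hes6, an inhibitor of Hes1, was 24.8 and 56.1 CPM. The Notch ligand gene Dll1 (34.1 and 56.9 CPM), Btg2, an antiproliferative gene (38.4 and 57.6 CPM), and the stress-inducible Gadd45g (47.3 and 72.0 CPM) were under 2-fold. Axon guidance genes were mixed, with 4 of 15 higher and 0 lower and a median of 0.56. Dcc, the netrin receptor, was 11.8 and 53.1 CPM. Robo3, the receptor of commissural axons, had 3 UMIs at day 7 (0.0228 CPM) and 1174 at day 8 (10.0 CPM), a ratio of 440 with a counting interval of 150 to 2136. The ephrins Efnb1 (69.7 and 71.3 CPM), Efnb2 (95.6 and 68.9 CPM) and Efnb3 (73.0 and 65.6 CPM) were under 2-fold.

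The share of cells with a UMI was compared after each cell was thinned to 10000 UMIs, which left out 8 cells of day 7 and 4 of day 8. Dcx was found in 47 of 2557 cells at day 7 (1.84%) and 414 of 3333 at day 8 (12.4%), or 4.72% and 16.6% unthinned. In the Mid/hindbrain class, taken here as the class without neurons, Dcx was in 0.904% and 1.66% of cells, and in dI3 cells it was in 71.4% and 96.4%. Elavl3, a neuronal RNA-binding protein, was in 9.19% and 36.2% of all cells, or 23.5% and 61.9% unthinned. Within Mid/hindbrain cells it went from 5.52% (4.58 to 6.58) to 22.0% (20.1 to 24.0), and within Spinal cord cells from 6.98% (2.60 to 14.6) to 28.4% (25.0 to 32.0). Elavl3 thus was more frequent at day 8 inside these 2 classes, where Dcx stayed below 3%.

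Progenitor genes were not lower as neurons gained share. Of 12 neural progenitor genes 5 were higher and 0 lower, with a median of 0.61 and 0.72 with the mix held equal. Vim, an intermediate filament of radial glia, was 382 CPM at day 7 and 1296 CPM at day 8, and Fabp7, a lipid carrier of radial glia, was 405 and 1127 CPM. Sox2, which maintains neural progenitors, was 279 and 302 CPM, under 2-fold. The gliogenic list held 8 genes compared, 3 higher and 0 lower, with a median of 0.79 and 0.77 with the mix held equal. It shares Sox9 (47.9 and 103 CPM) with the progenitor list, and its others were Ttyh1, a membrane protein of radial glia (3.89 and 16.9 CPM), and Nfia, a factor of the switch to glia (2.28 and 7.41 CPM). Metrn, a secreted glial factor, was 182 and 282 CPM, under 2-fold.

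Genes of cell division were nearly level. No gene of the 18 S phase genes or the 18 G2 and mitosis genes was 2-fold apart over all cells, with medians of -0.22 and 0.15. Top2a, a topoisomerase of dividing cells, was 426 and 699 CPM. Inside the dP2/3 class 8 of 16 G2 and mitosis genes were at least 2-fold lower, with a median of -0.96, where 4.54% of all genes in that class were 2-fold apart. The thinned share of cells with Mki67 was 64.4% at day 7 and 63.2% at day 8 (91.4% and 79.6% unthinned).

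Hox genes of groups 5 to 9, which mark the trunk, were all higher over all cells: 9 of 9 compared, with a median of 2.89. Hoxb9 was 7.07 CPM (6.62 to 7.54) at day 7 and 52.5 CPM (51.2 to 53.8) at day 8, and Hoxb8 was 6.74 and 45.6 CPM. Hoxc8 was 0.228 and 9.90 CPM. Their median was 1.09 with the mix held equal and 0.79 inside the Spinal cord class, where 3 of 9 were higher and 2.84% of all genes were 2-fold apart. There Hoxb9 was 99.5 and 177 CPM and Hoxb8 was 87.2 and 127 CPM, both under 2-fold, while Hoxc8 was 1.51 and 41.5 CPM. The day 6 duplicates differed in the same genes by a median of -2.42. The summed level of the 12 members was 295 CPM in batch 1 and 50.2 CPM in batch 2 of day 6, beside 28.5 CPM at day 7, 215 CPM at day 8 and 247 CPM at day 10. The libraries of 1 day thus differed by more than 2-fold in these genes as well, though by less than day 7 and day 8.

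Of 10 Hox genes of groups 1 to 4 compared, 6 were higher and 0 lower, with a median of 2.07. Hoxb4 (3.03 and 20.8 CPM) and Hoxc4 (2.08 and 16.5 CPM) were among the higher. The hindbrain genes Hoxb2 (185 and 98.5 CPM) and Hoxa2 (142 and 93.5 CPM) had log2 differences of -0.91 and -0.61, under 2-fold, and Hoxb1, also of the hindbrain, was 20.6 and 26.9 CPM. Inside the Mid/hindbrain class Hoxb1 was 16.1 and 33.7 CPM, and inside the Proliferative class it was 83.8 and 29.1 CPM. The median of the list was 0.81 with the mix held equal.

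Lists of the dorsal midline had members that were lower at day 8. Of 9 BMP target genes 0 were higher and 3 lower, with a median of -0.50, beside -0.44 between the day 6 duplicates: Id1, an inhibitor of proneural factors, was 693 and 345 CPM, Bambi, a BMP pseudoreceptor, was 18.9 and 6.99 CPM, and Msx2 was 37.9 and 16.9 CPM. Of 6 roof plate genes 0 were higher and 3 lower, with a median of -0.99 (-0.80 with the mix held equal, and -1.12 between the duplicates). Wnt1, a roof plate ligand, was 64.7 and 31.8 CPM. Inside the Pre-EMT cranial neural crest class the roof plate list went the other way, with 3 of 7 higher and 0 lower and a median of 0.65. There Rspo1, a secreted enhancer of Wnt signalling, was 145 and 401 CPM, and Wnt1 was 156 and 244 CPM. That class held a smaller share at day 8, and its summed surface ectoderm markers (Epcam, Krt8, Krt18 and Cldn6) were 323 CPM at day 7 and 35.5 CPM at day 8, with 1 of the 4 at 0 at day 8; the part of this in the result was not tested.

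Notch genes had 4 of 13 higher and 0 lower, with a median of 0.27. The receptor gene Notch1 was 33.9 and 91.7 CPM, its feedback inhibitor Nrarp was 28.5 and 72.9 CPM, and Dtx4, a ligase that binds the receptor, was 42.6 and 94.98 CPM. The ligand Dll3 was 8.09 and 28.7 CPM, but stood at 0.26 with the mix held equal, whereas Notch1, Nrarp and Dtx4 kept 1.33, 1.45 and 1.26. Hes5, a target of the pathway, was 144 and 154 CPM, under 2-fold. Inside the Pre-EMT cranial class 7 of 10 Notch genes were higher and 0 lower, where 2.22% of all genes of that class were higher. Of 8 Wnt targets 1 was higher and 2 lower, with a median of -0.39; Lef1, the DNA-binding partner of β-catenin, was 31.6 and 14.6 CPM, and Axin2, a feedback inhibitor, was 59.6 and 50.6 CPM.

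Neural crest genes split. Of 9 compared 3 were higher and 5 lower, with a median of -1.20, beside -0.89 between the day 6 duplicates. Mef2c was 16.1 and 2.38 CPM, and Twist1, a factor of mesenchyme, was 17.3 and 7.55 CPM. Ednrb, an endothelin receptor, was 33.5 and 99.5 CPM, and Tfap2b was 9.72 and 41.9 CPM; with the mix held equal Ednrb kept 1.80 and Tfap2b had 0.57. Tfap2b also led the dP2/3 class, so its level is not that of crest alone. The summed levels of mesenchyme genes were 47.1 and 14.7 CPM, and those of surface ectoderm and epithelium were 49.1 and 14.7 CPM. Those of muscle and heart were 2.06 and 2.12 CPM.

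Matrix genes and early response genes were lower in part. Of 13 cadherin and matrix genes 5 were lower and 0 higher, with a median of -0.80. The laminin chain gene Lamb1 was 12.5 and 2.56 CPM, and the collagen chain genes Col4a1 and Col2a1 were 24.2 and 8.34 CPM and 69.4 and 30.0 CPM. N-cadherin (Cdh2), of the neuroepithelium, was 159 and 180 CPM. Of 11 immediate early genes 4 were lower and 0 higher: Fosb was 14.7 and 1.79 CPM, Fos was 65.5 and 22.1 CPM, and Egr1 was 21.7 and 6.34 CPM, with Junb as the fourth. Such genes also respond to cell dissociation, and the part of that step was not tested; Jun was 132 and 140 CPM.

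**Figure D4:**
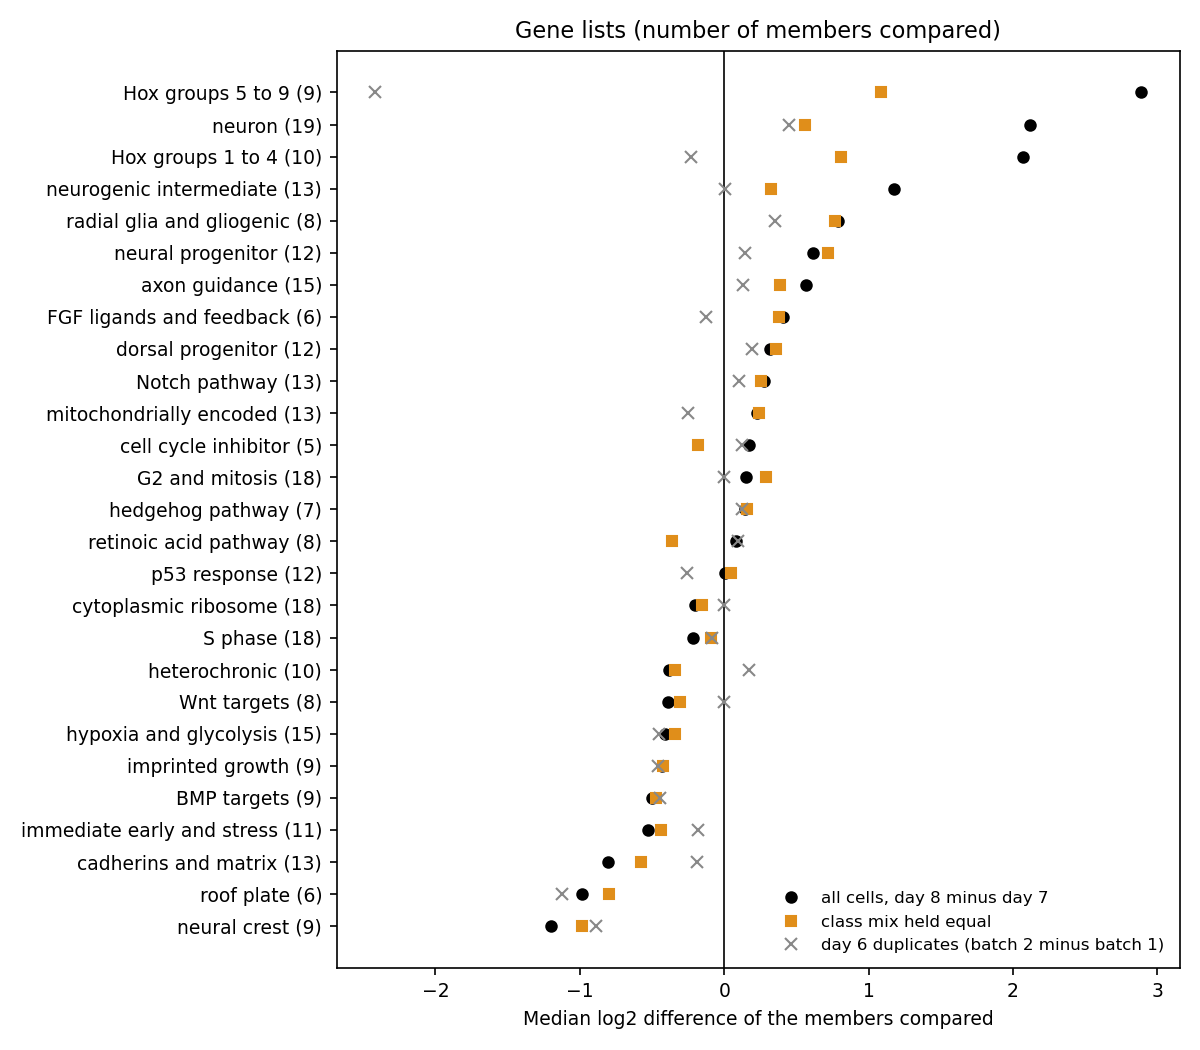
Median log2 difference, day 8 minus day 7, of each gene list over all cells (black circles) and with the class mix held equal (orange squares), beside the median between the day 6 duplicates (grey crosses), with the number of members compared after each name. The neuron and Hox lists moved farthest toward 0 with the mix held equal, which leaves out the dI classes, and the Hox 5 to 9 list differed between the duplicates by -2.42.

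Inside the 5 classes the share of genes at least 2-fold apart was 2.83% in Mid/hindbrain (105 higher and 62 lower of 5893), 2.84% in Spinal cord (113 and 52 of 5811), 4.54% in dP2/3 (160 and 99 of 5705), 3.57% in Proliferative neural progenitor (152 and 59 of 5916) and 3.88% in Pre-EMT cranial neural crest (136 and 102 of 6129). The smaller classes had fewer UMIs, so their shares are not comparable with that of Mid/hindbrain. Most genes passed in 1 class only, but a gene under 20 CPM in a class on both days was not compared there. Passing in 1 class thus does not show that a gene was level in the others. On the higher side 243 genes passed in 1 class, 77 in 2, 33 in 3, 25 in 4 and 14 in all 5. On the lower side the numbers were 185, 41, 18, 7 and 5.

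Mid/hindbrain cells, the largest class, had Pou3f3 (9.16 and 89.9 CPM) and Pantr1 (23.9 and 211 CPM) as the most raised of the genes with at least 50 CPM on the higher day; less abundant genes such as C130071C03Rik, with a log2 difference of 6.69, were farther apart. They were followed by Ctnnd2, a catenin of neural cell contacts (11.03 and 54.8 CPM), Trp53i11 (13.4 and 63.7 CPM) and the brain creatine kinase Ckb (147 and 675 CPM). The most lowered by the same rule were Slc2a3 (56.1 and 14.1 CPM), Arid3b (51.1 and 13.2 CPM), Lin28a (115 and 33.2 CPM), Ldha (405 and 121 CPM) and the orphan nuclear receptor Nr6a1 (130 and 42.5 CPM). In Spinal cord cells the 5 most raised by the same rule were Mir99ahg, C130071C03Rik, Pou3f4 (7.57 and 59.8 CPM), the zinc finger gene Zfp536 (6.71 and 51.6 CPM) and Ckb (96.3 and 724 CPM). Their lower side held Lin28a (87.4 and 12.5 CPM), the retinoic acid binding protein Crabp1 (1777 and 276 CPM), Nr6a1 (66.6 and 14.8 CPM), Prtg, a receptor of the immunoglobulin family (373 and 109 CPM), and Hmga2, a chromatin protein of early progenitors (253 and 89.1 CPM).

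Progenitors close to neurogenesis showed further genes. In dP2/3 cells Pantr1 was 14.5 and 352 CPM, Pou2f2 was 5.11 and 51.7 CPM, and Fez1, an adaptor of axonal transport, was 14.5 and 122 CPM. Tle5 (12.3 and 108 CPM) and the secreted Fgfbp3 (9.79 and 74.4 CPM) were raised there as well. Krt8 (84.7 and 10.0 CPM), Pou3f1 (206 and 41.7 CPM), Msx1, a dorsal homeobox factor (54.9 and 12.5 CPM), the calcium-binding S100a6 (88.9 and 20.8 CPM) and the cell cycle inhibitor Cdkn1a (54.9 and 13.6 CPM) were lowered. In the Proliferative class Dbx1, a homeobox factor of intermediate progenitor domains, was 1.01 CPM at day 7 and 72.5 CPM at day 8, 71.8-fold higher (27.8 to 265). Cck, the neuropeptide cholecystokinin, was 64.4 and 0.920 CPM, 70.0-fold lower (29.6 to 217). This class thus held different marker genes on the 2 days, with 82 and 159 cells.

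Pre-EMT cranial crest cells had Pou3f3 (3.14 and 59.5 CPM), Pantr1 (12.8 and 127 CPM), Ckb (63.3 and 594 CPM), Adcyap1r1, the receptor of a pituitary peptide (14.9 and 122 CPM), and Mir124-2hg (13.9 and 62.8 CPM) among those farther up. Krt8 was 152 and 7.24 CPM, 21.01-fold lower (13.8 to 33.7). S100a10, Car2 and Ifitm1 were also lower there, the last from 80.7 to 9.87 CPM. Keratins were among the 10 leading genes of this class at day 7 and not at day 8.

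At least 2-fold higher in all 5 classes were 14 genes, namely Ckb, Fabp7, Fez1, Frmd4a, Ldhb, Nav2, Npas3, Pantr1, Pou2f2, Pou3f3, Pou3f4, Tle5, Vim and Zfhx3. Their smallest log2 difference in a class was 2.82 for Pou2f2, 2.44 for Tle5, 2.06 for Pantr1, 2.01 for Pou3f4 and 1.56 for Ckb, and lay between 1.02 and 1.31 for the other genes. At least 2-fold lower in all 5 were 5 genes, Eno3, Ldha, Lin28a, Nr6a1 and Tsen15, which is a subunit of the tRNA splicing enzyme. Another 7, Mt1, Pou3f1, Prtg, Ror2, S100a10, S100a6 and Slc2a3, were lower in 4. Of these, Pou3f1, Ror2, S100a10, S100a6 and Slc2a3 had log2 differences below -1 in the remaining class too but were under 20 CPM there on both days. Car4 was under 20 CPM on both days in 3 classes and Sulf1 in 2, so neither could be counted in all 5. Their log2 differences ran from -5.95 to -3.53 and from -5.44 to -2.69 over the 5 classes; Car4 had 0 UMIs at day 8 in 4 classes, where it was at least 9.60-fold to 23.8-fold lower when set against 3 UMIs.

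**Figure D5:**
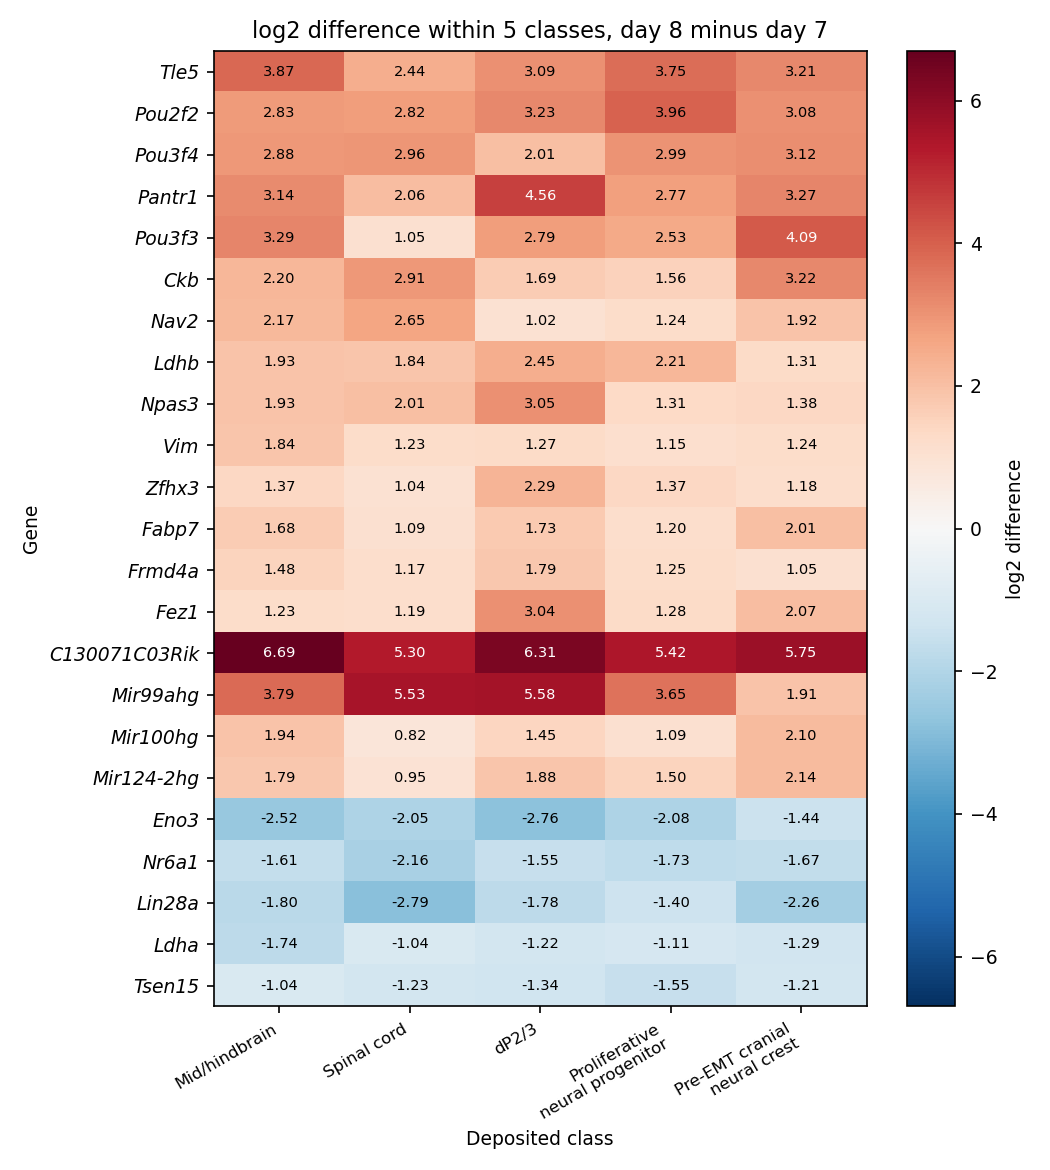
Log2 difference, day 8 minus day 7, inside each of the 5 classes (columns), for the genes at least 2-fold higher or lower in all 5 and for 4 transcripts that hold microRNA genes (rows), with the value printed in each cell and red for higher at day 8. Values of C130071C03Rik in dP2/3, Proliferative neural progenitor and Pre-EMT cranial neural crest cells are set against 0 UMIs at day 7 and depend on the prior count of 2 UMIs.

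Several of these genes belong to small families whose members moved apart, and the families were looked up after those values were seen. The POU class III factors are regulators of neural progenitors that bind a shared DNA motif. Pou3f1 was 99.4, 39.9, 20.7 and 114 CPM at day 6, day 7, day 8 and day 10. Pou3f2 was 4.2, 62.6, 167 and 155 CPM on the same days. Pou3f3 was 1.06, 10.7, 89.5 and 85.0 CPM, and Pou3f4 was 1.82, 3.74, 36.1 and 48.8 CPM. Pou3f2, Pou3f3 and Pou3f4 were thus more than 2-fold higher at day 8 than at day 7, while Pou3f1 had a log2 difference of -0.94. Inside the 5 classes Pou3f1 was between -2.34 and -1.07 and with the mix held equal it was -2.15. These directions were the same under all 3 scalings tried.

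Lactate dehydrogenase is built from Ldha and Ldhb subunits, which favour the formation and the use of lactate, respectively. Ldha was 1847, 388, 135 and 646 CPM from day 6 to day 10, and Ldhb was 60.5, 32.5, 135 and 239 CPM. Between day 7 and day 8 Ldha was 2.86-fold lower (2.81 to 2.92) and Ldhb 4.15-fold higher (4.01 to 4.29). The opposite moves were present inside each class: in Mid/hindbrain Ldhb was 28.5 and 108 CPM beside the lower Ldha given above, in Spinal cord Ldha was 273 and 132 CPM and Ldhb 42.6 and 153 CPM, and in dP2/3 Ldha was 169 and 72.6 CPM and Ldhb 42.1 and 231 CPM. The wider glycolysis list did not share the size of this change. Of its 15 genes compared 3 were lower (Slc2a3, Ldha and Pfkp, a phosphofructokinase, at 5.60 and 1.30 CPM) and 0 higher, and the median was -0.41, beside -0.45 between the duplicates. Gapdh was 2404 and 2081 CPM, and the transporter Slc2a1 was 58.1 and 70.2 CPM. Chosen after their values were seen, Oxct1, a ketone body enzyme, was at 33.1 and 73.3 CPM and Hadhb, of fatty acid oxidation, at 11.3 and 30.4 CPM. Ckb was 36.3, 161, 802 and 1260 CPM from day 6 to day 10.

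Lin28a, the RNA-binding protein that blocks let-7 maturation, stood at 272, 118, 38.3 and 10.7 CPM from day 6 to day 10 and was 3.07-fold lower (2.97 to 3.18) at day 8 than at day 7. It was lower in each of the 5 classes, by -1.40 to -2.79 on the log2 scale. At 10000 UMIs per cell Lin28a was found in 64.6% of cells at day 7 and 26.8% at day 8 (96.5% and 54.5% unthinned), and in Spinal cord cells in 53.5% (42.4 to 64.3) and 9.62% (7.499 to 12.1). Nr6a1 was 173, 129, 41.7 and 13.99 CPM over the 4 days, 3.09-fold lower (2.99 to 3.19) at day 8 than at day 7. The heterochronic list of genes tied to developmental timing did not move as far: 1 of 10 was lower and 0 were higher, with a median of -0.38. Hmga2 was 185 and 106 CPM, Trim71, a ubiquitin ligase and let-7 target, was 133 and 75.4 CPM, and the mRNA-binding Igf2bp1 was 330 and 248 CPM. Igf2bp3 was 201 and 223 CPM.

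The seeds printed above were matched to 3′ untranslated regions, using the longest such region of each gene in GENCODE M21. The letters searched were the reverse complement of the seed followed by A. The let-7 site CTACCTCA was present in 415 of 9401 compared genes (4.41%), the miR-125b site CTCAGGGA in 5.88% and the miR-9 site ACCAAAGA in 5.46%. The median log2 difference was -0.03 with the let-7 site and -0.03 without it, so genes with these letters did not stand apart as a whole. Of the heterochronic list, which is partly made of known let-7 targets, 7 of 10 held the let-7 site, among them Trim71 with 4, Igf2bp1 with 3, Lin28a with 2 and Hmga2 with 1. Among the 12 genes lower in 4 or 5 classes, Lin28a, Nr6a1, Prtg and Slc2a3 held the let-7 site, and Lin28a, Nr6a1 and Prtg also held the miR-125b site. The same 4 genes held TGAATGTA, the site of miR-181a and miR-181b, so the match was not particular to let-7. That site was present in 624 of the 9401 compared genes (6.64%). Gm4258, which holds Mir181a-1 and Mir181b-1, was 11.2 CPM at day 7 and 27.0 CPM at day 8. The site of miR-99a and miR-100, TACGGGTA, was in 0 of the 12. The length of the regions was not taken into account. A match of letters is a description only, and no mature microRNA was measured.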

How the data were processed

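Single-cell RNA was measured with the 10x Genomics 3′ v3 kit. Cell Ranger 3.1 and mm10 are named, per the submitters' processing notes; cell filters, strand setting and class assignment are not given in the sources used here. The deposited values are UMI counts per gene and cell, and the authors' metadata give the mitochondrial share in percent. UMI counts were summed per library, or per library and deposited class, over the 478 of 488 list genes and all other genes in the table. CPM used TMM factors (edgeR 4.0.16, limma 3.58.1, R 4.3.3), and log2 differences a prior count of 2 UMIs. Genes with at least 5 CPM on 1 day (20 CPM inside a class) were compared, and 2-fold was the rule for a call. Fold intervals are exact conditional binomial, levels exact Poisson and shares Clopper-Pearson, at 95%, from Python 3.11.15, numpy 2.4.6, pandas 2.3.3 and scipy 1.17.1. No doublet caller was run. The script was tested on simulated data.

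For the class mix held equal, both days received 6.36% dP2/3, 72.1% Mid/hindbrain, 3.97% Pre-EMT cranial neural crest, 4.35% Proliferative neural progenitor and 13.2% Spinal cord cells, the means of their shares. These values came from class CPM without TMM factors, with 0.02 CPM added in place of the prior count. Named genes were the 15 highest and 15 lowest log2 differences with at least 20 CPM on the higher day, the 5 highest and 5 lowest of each class with at least 50 CPM, the 10 highest and 10 lowest with the mix held equal, and in each list up to 4 of the highest level and 2 of the largest difference; other names were chosen after their values were seen. Members and lists were chosen with earlier results of these data known. Other scalings, prior counts, minimums, depths and class mixes were tried as alternatives. Some named genes are not reported here.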

Additional observations from a re-analysis of the deposited data

Results flagged for a closer look

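With at least 50 CPM on the higher day in both classes, 3 genes were at least 2-fold higher at day 8 in 1 class and at least 2-fold lower in another; the differences between classes were not tested. Peg10, an imprinted gene derived from a retrotransposon, was 18.7 CPM at day 7 and 67.2 CPM at day 8 in dP2/3 cells, and 93.0 and 28.6 CPM in Pre-EMT cranial neural crest cells. Its log2 differences of 1.82 and -1.69 lie 3.51 apart. Nnat, the imprinted proteolipid gene neuronatin, was 228 and 519 CPM in Spinal cord cells and 345 and 104 CPM in Pre-EMT cranial neural crest cells, a gap of 2.91 between 1.18 and -1.72. Mt2, a metallothionein, was 33.5 and 67.5 CPM in Spinal cord cells and 220 and 69.1 CPM in Pre-EMT cranial neural crest cells, a gap of 2.67 between 1.01 and -1.67. All 3 were lower in the Pre-EMT cranial class. Krt8 was lower at day 8 there too, but it was lower in each of the 5 classes, with log2 differences from -4.32 to -1.82.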

How the results depend on the processing

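With 1 library a day, no replicate could be left out. The count of genes at least 2-fold higher over all cells, 374, was 239 with the class mix held equal, 722 with a minimum of 1 CPM, 158 with 20 CPM and 2146 with no minimum. The count of lower genes, 231, was 497, 75 and 2003 with the last 3 settings. With a minimum of 50 CPM inside a class, the higher and lower counts were 65 and 40 in dP2/3, 45 and 18 in Mid/hindbrain, 52 and 36 in Pre-EMT cranial neural crest, 57 and 24 in Proliferative neural progenitor, and 56 and 11 in Spinal cord. The counts under other minimums move because fewer or more genes are compared. With the class mix held equal 9594 genes were compared, beside 9703 over all cells. The median of the neural crest list was 1.57 with a minimum of 20 CPM in place of -1.20. No other list median at least 0.5 from 0 changed sign. None of the 30 genes named over all cells changed direction: 118 recomputed values stayed inside the counting interval and 62 did not. Of the 62, 28 came with 1 CPM added in place of the prior count and 22 with the class mix held equal. All 30 stayed inside with relative log expression factors and with plain totals. The median of all genes was -0.03 with TMM or relative log expression factors and 0.01 with plain totals. Depth limits genes near 3 UMIs per library (0.0225 CPM at day 7 and 0.0259 CPM at day 8).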

Other observations

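Dorsal progenitor genes, not described above, were mostly under 2-fold: 2 of 12 were higher and 1 was lower, with a median of 0.32. Irx5, an Iroquois homeobox gene, was 77.3 CPM at day 7 and 173 CPM at day 8, and Zic4 was 6.69 and 18.9 CPM. Pax3, a dorsal paired box factor, was 122 and 178 CPM. Gsx1, a homeobox factor of a more ventral dorsal progenitor domain, had 7 UMIs at day 7 (0.0532 CPM) and 594 at day 8 (5.08 CPM), 95.4-fold higher (46.0 to 238), and was 4.03 CPM at day 10. Imprinted growth genes had 1 of 9 higher and 1 lower: Plagl1, a zinc finger factor, was 20.2 and 69.4 CPM, and Grb10, a growth inhibitor, was 5.98 and 1.37 CPM. Retinoic acid genes had 1 of 8 higher and 1 lower: the receptor gene Rarb was 2.11 and 7.44 CPM, and Rdh10, which makes retinal, was 10.97 and 4.16 CPM.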
